A study of Mus musculus with 2 samples.

Results

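Crem, E2f6, Meis2, Mecom and Zfp219 encode transcription factors that read specific DNA sequences, and each had 1 alternative splicing event in mouse embryonic fibroblasts with and without SRSF10. They were taken by gene symbol from the authors' deposited table of differential splicing, with every row listed for them, and make up 5 of its 96 genes and 5 of its 100 events. Poly(A) RNA was sequenced from wild-type (WT) fibroblasts and from SRSF10-deficient (KO) fibroblasts, 1 library each. Both are fibroblasts from embryonic tissues. The labels do not say how SRSF10 was lost, from which embryonic day the cells came, or whether they were pooled from several embryos. The deposited table has no expression levels, so neither the loss of Srsf10 nor the fibroblast identity could be checked against marker genes, and none of 24 marker genes looked up had a listed event.

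SRSF10 belongs to the SR proteins, RNA-binding proteins that steer which exons and splice sites are used. Transcription factors are modular. A DNA-binding domain, such as a zinc finger array, a homeodomain, a winged helix or a basic leucine zipper, picks the target sites, and other parts recruit activators or repressors or set how the protein is controlled. Splicing can therefore change what such a gene makes without changing how much of it is transcribed. Crem is the classic case, with activator and repressor forms of the same gene made by alternative exons and start sites in mouse testis and in cAMP signalling.

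The alternative parts fell at different places of the reading frame. Each was placed in GENCODE M21 transcripts by the lengths of its exon and flanking introns, and the codons were counted in 1 transcript pair per gene. In Crem and Zfp219 the exon holds the start codon, in E2f6 and Meis2 it holds a stop codon, and in Mecom the part lies inside the frame and codes for zinc fingers.

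Sequences are shown where they make the difference visible, in coding letters of GENCODE M21 transcripts (GRCm38), from 5′ to 3′ on the gene's strand. In Mecom the capitals mark the codons of the 4 metal-binding residues of each of 2 zinc fingers that are read only from the longer exon. In E2f6 and Meis2 they mark the stop codon met inside the cassette exon. The Meis2 stretch of equal length from the last exon is what is read when the cassette exon is skipped, and it has no stop codon in frame. In Zfp219 the capitals mark the start codon inside the cassette exon and the next annotated start codon, in the exon after it.
Mecom finger at codons 190 to 210: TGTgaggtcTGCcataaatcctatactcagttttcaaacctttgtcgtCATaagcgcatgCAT
Mecom finger at codons 219 to 239: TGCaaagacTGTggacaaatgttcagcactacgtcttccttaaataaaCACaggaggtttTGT
E2f6 exon through its stop: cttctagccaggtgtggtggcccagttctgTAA
Meis2 exon through its stop: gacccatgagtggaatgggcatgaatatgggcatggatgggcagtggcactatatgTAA
Meis2 last exon, exon skipped: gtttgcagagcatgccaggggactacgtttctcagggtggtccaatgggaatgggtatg
Zfp219 between both start codons: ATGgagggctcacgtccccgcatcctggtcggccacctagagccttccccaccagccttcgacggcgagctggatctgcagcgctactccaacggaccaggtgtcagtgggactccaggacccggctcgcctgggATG

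**Figure D1:**
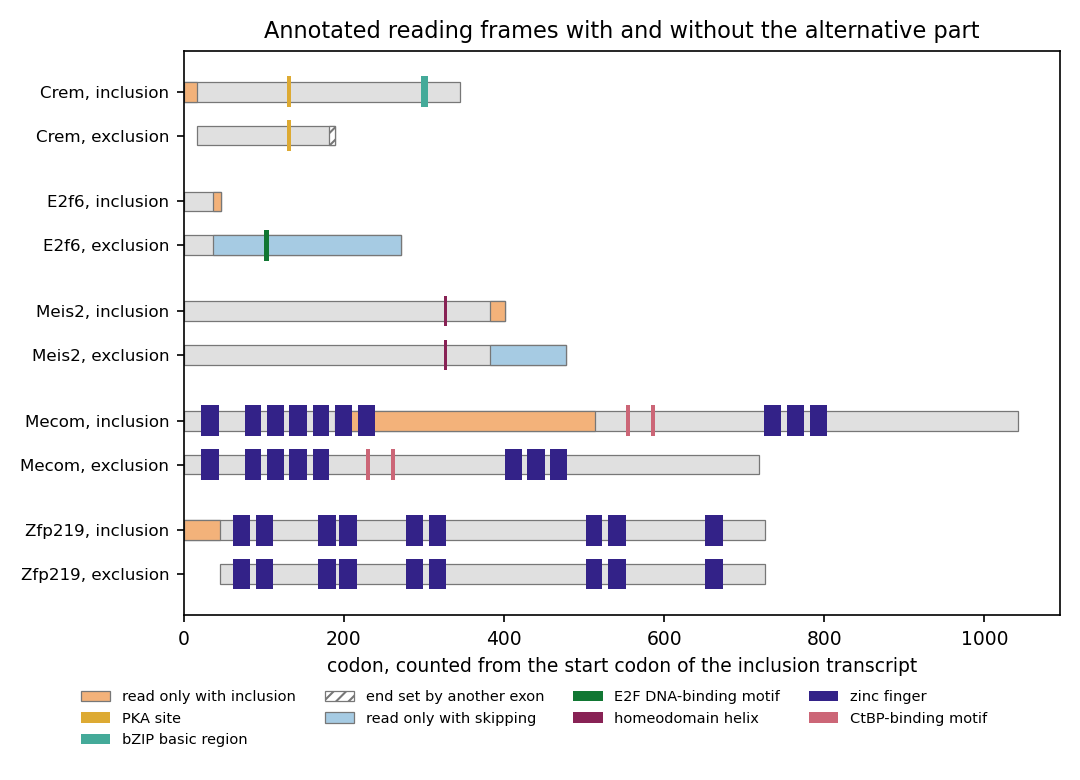
Annotated reading frames of the inclusion and the exclusion transcript of each gene, with the codon number counted from the start codon of the inclusion transcript on the x axis. Orange marks codons read only with inclusion, blue codons read only with skipping, and dark blocks the protein patterns searched. Mecom keeps 8 of 10 zinc finger patterns without its alternative part, and Zfp219 has all 9 in both forms.

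The comparison asked how the use of each alternative part differed between WT and KO fibroblasts. Inclusion is the authors' estimate of the percentage of transcripts that carry the alternative part, given with their interval, the level of which no source used here states. Inclusion rose in Crem, Zfp219, Mecom and Meis2 and fell in E2f6. All 5 events passed a two-sided Fisher's exact test on the reads that fit a single isoform, with Benjamini-Hochberg adjustment over all events of the table. With the stricter Holm adjustment Mecom and Zfp219 passed, while Crem, E2f6 and Meis2 did not, and 36 events of the table passed in place of 86. Of the 100 listed events 86% passed (49% higher and 37% lower in KO), and the authors' intervals did not overlap in 83%, so 5 of 5 passing, and 5 of 5 with separate intervals, is close to the rest of the table. The smallest difference in the table is 20 points, in the libraries tested here, which means that a pass is no independent support. Each genotype had a single library, so there is no replicate check, and the test compares the 2 libraries, not the genotypes. The median size of the difference was 35 points in the 5 genes and 33.5 points over all events. Intervals cover counting error only, and not variation between libraries. Amplified reads are not independent molecules, so the intervals may be too narrow even for counting error.

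**Figure D2:**
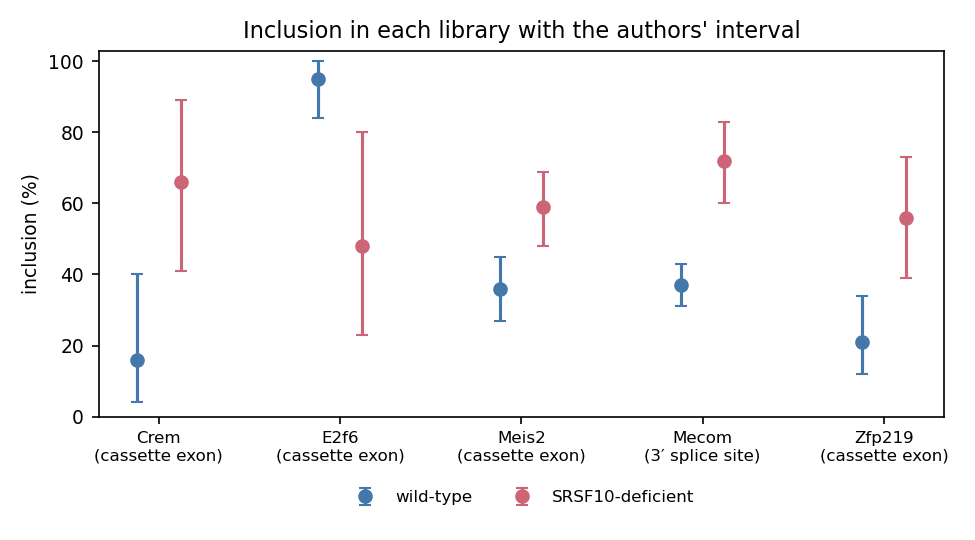
Inclusion (%) of the 5 events in the WT and KO libraries, with points for the authors' estimate and bars for their interval. The bars of both libraries are apart for every gene, by 1 point in Crem (40% against 41%) and by 17 points in Mecom (43% against 60%).

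Mecom encodes EVI1, a zinc finger protein with a proximal and a distal finger array that acts in blood stem cells and, when overexpressed, in leukaemia. Its event is an alternative 3′ splice site on the minus strand of chromosome 3, and the longer exon carries 972 extra nucleotides (mm9 chr3:29878908-29879879). In the WT library inclusion of these nucleotides was 37% (31% to 43%), and in the KO library it was 72% (60% to 83%). The shorter exon was the more used form in WT and the longer one in KO.

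The 972 nucleotides are 324 codons and keep the frame, so that the annotated protein has 1042 residues with them and 718 without. The short protein is the EVI1 form known for the loss of 324 residues, described in mouse and human cells. A search for the spacing of metal-binding residues found 10 zinc fingers in the long form and 8 in the short one. The 2 that differ lie at codons 190 to 210 and 219 to 239, at the end of the proximal array, and their coding letters are printed above. The first base of codon 190 comes from the exon before. Both copies of the short motif by which EVI1 binds the corepressor CtBP (PxDLS or PxDLT, where x is any residue) lie in the shared part, at codons 553 to 588 of the long form, and are in both proteins. Of the 17 annotated Mecom transcripts 6 matched the longer and 4 the shorter exon.

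Mecom had the most isoform-exclusive reads of the 5 genes. In WT, 214 of 260 exclusive reads fit the longer exon alone, a share of 82.3% (exact 95% interval 77.1% to 86.7%). In KO, 192 fit the longer and 9 the shorter exon, a share of 95.5% (91.7% to 97.9%; Fisher's exact test, adjusted p = 5.96e-05). The share of reads is not corrected for length and stands above the inclusion estimate in both libraries, since reads from anywhere in the 972 nucleotides count for the longer exon.

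The Mecom reads also changed in number. Reads over the event numbered 569 in WT and 322 in KO, a ratio of 0.604 (95% interval 0.525 to 0.693) once divided by the table's median gene ratio of 0.937. Of the 96 genes, 10 had a ratio this low or lower (Mecom included), and the quartiles over genes were 0.905 and 1.18. Reads for the shorter exon went from 46 to 9, a scaled ratio of 0.209 (0.0898 to 0.432), while reads for the longer exon went from 214 to 192, a scaled ratio of 0.957 (0.784 to 1.17). Reads that fit neither isoform went from 195 to 71, a scaled ratio of 0.388 (0.292 to 0.512). Those that fit both went from 114 to 50, a scaled ratio of 0.468 (0.329 to 0.658). What lowered the reads was not tested. The fall was uneven over the read classes, and the total includes reads that fit neither isoform. It is therefore no measure of Mecom RNA as a whole. Fewer cells that express Mecom and less Mecom RNA per cell cannot be told apart in bulk RNA, and whether only some Mecom transcripts fell was not tested.

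E2f6 is a member of the E2F family with the DNA-binding and dimerization domains but without the activation domain of other E2F proteins, and it represses germline genes in the mouse together with Polycomb proteins. Its event is a 66-nucleotide cassette exon on the plus strand (mm9 chr12:16820653-16820718), placed between the exon with the start codon and the rest of the coding sequence. In WT inclusion was 95% (84% to 100%), and in KO it was 48% (23% to 80%). It was the only fall among the 5 genes, and the KO interval was the widest of the 5 genes in either library.

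All 3 annotated E2f6 transcripts with this exon are classed as targets of nonsense-mediated decay, the pathway that degrades mRNAs with an early stop codon, and 1 of them has both listed introns. Although 66 is a multiple of 3, the exon ends the frame after 10 codons of its own with the TAA printed above. The frame then has 46 codons, of which 36 are shared with the full protein of 272 residues made from the principal transcript, which skips the exon. The RRxYDI motif of the E2F DNA-binding domain lies at codons 101 to 106 of the full protein, past that stop.

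Few E2f6 reads told the isoforms apart. In WT all 29 exclusive reads fit inclusion, and 0 fit skipping, which allows a skipping share of up to 10.3%. In KO, 6 of 10 exclusive reads fit inclusion, a share of 60.0% (26.2% to 87.8%; Fisher's exact test, adjusted p = 0.00511, or 0.13 with Holm). Reads that fit both isoforms were steady, at 597 in WT and 566 in KO, a scaled ratio of 1.01 (0.900 to 1.14). Inclusion-only reads had a scaled ratio of 0.221 (0.0749 to 0.541), and skipping reads went from 0 to 4. The 66-nucleotide sequence is repetitive, since transcripts of 144 other genes held a stretch at least 80% identical over at least 80% of its length (66 genes in the same and 78 in the opposite orientation, the closest at 83.6% identity). Whether reads from such copies entered the counts was not tested.

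Crem encodes a basic leucine zipper factor that binds cAMP response elements and is needed for sperm formation in the mouse. The listed exon, 98 nucleotides long, is the second exon of the inclusion transcript used here and lies on the minus strand of chromosome 18 (mm9, 3327492 to 3327589). In WT inclusion was 16% (4% to 40%), and in KO it was 66% (41% to 89%). It was the largest of the 5 differences and ranked 11th of the 100 events by size, although on the fewest reads.

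This exon holds the start codon in each of the 8 transcripts with the exon whose frame start is annotated. Skipping joins the first exon to the next one, and in both annotated transcripts that do so the frame starts 16 codons further on, at codon 17 of the 345-codon inclusion frame. In the longer of both, with 173 codons, the residues from there on are the same for 166 codons. That transcript then ends early, with 7 codons set by another exon end that lies outside the listed event. The site in the kinase-inducible domain that protein kinase A phosphorylates (RRPSY) is at codons 130 to 134 and is read in both forms, and the basic region that contacts DNA is at codons 297 to 305 of the inclusion frame. The listed exon codes for neither.

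Crem had 25 reads over the event in WT and 28 in KO, the lowest of the 5 genes. In WT, 2 of 11 exclusive reads fit inclusion, a share of 18.2% (2.28% to 51.8%). In KO, 10 of 13 did, a share of 76.9% (46.2% to 94.96%; Fisher's exact test, adjusted p = 0.0173). These share intervals overlap between 46.2% and 51.8%. An included exon offers more places for inclusion-only reads, so these were also divided by 2, in both libraries alike. This lowers the counts and hardly changes the contrast between the libraries. Crem then missed the threshold (adjusted p = 0.0573 by Fisher's exact test). Over all alternatives that gave one, the adjusted p ran from 0.0171 to 0.375.

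Zfp219 encodes a zinc finger protein that was described as a transcriptional repressor and, in mouse cartilage cells, as a partner of SOX9. Its event is an 89-nucleotide cassette exon on the minus strand of chromosome 14 (mm9 chr14:52629645-52629733). In WT inclusion was 21% (12% to 34%), and in KO it was 56% (39% to 73%). Skipping was the main form in WT, and both forms were near balance in KO.

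The Zfp219 exon holds the start codon in all 10 annotated transcripts that carry it, and codes for only 6 nucleotides at its end. Without it, the frame starts at the second ATG printed above, 45 codons further on, for 681 in place of 726 codons. The zinc finger search found 9 fingers in both forms, the first at codons 63 to 83 counted from the upstream start. The residues read only with the exon lie before the whole finger array, and all 681 residues of the short form are in the long one. Of the 13 annotated Zfp219 transcripts, 1 matched the listed inclusion and 1 the listed skipping, so each form rests on 1 transcript.

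In WT, 11 of 32 exclusive Zfp219 reads fit inclusion, a share of 34.4% (18.6% to 53.2%). In KO, 21 of 25 did, a share of 84.0% (63.9% to 95.5%; Fisher's exact test, adjusted p = 0.00139). Skipping reads went from 21 to 4, a scaled ratio of 0.203 (0.0507 to 0.602), and inclusion-only reads from 11 to 21, a scaled ratio of 2.04 (0.939 to 4.68). Exclusive reads were only 3.56% of the 900 reads in WT and 2.52% of the 994 in KO, and 450 and 505 reads fit neither isoform.

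Meis2 encodes a homeodomain protein of the TALE class, which binds DNA together with PBX and HOX proteins. Its 95-nucleotide cassette exon on the minus strand (mm9 chr2:115692546-115692640) is the second last exon of the gene. In WT inclusion was 36% (27% to 45%), and in KO it was 59% (48% to 69%). This was the smallest of the 5 differences, at 23 points, and ranked 84th of the 100 events.

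Inclusion of the Meis2 exon replaces the end of the protein. Both forms share 383 residues, among them the recognition helix of the homeodomain, whose WFxN motif is at codons 326 to 329. With the exon 18 more residues follow before the stop printed above, for 401 in all, and 36 nucleotides of the exon come after the stop codon. Without it 94 residues follow, for 477 in all. The long tail belongs to the C-terminal region, which in Meis proteins has been linked to transcriptional activation. Inclusion was annotated in 6 and skipping in 5 of 19 Meis2 transcripts. The exon had 1 near copy in other genes by the criterion used for E2f6, in the paralog Meis1 (86.3% identity), and the alternative parts of Crem, Mecom and Zfp219 had none.

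Meis2 had the most reads in all. In WT, 38 of 89 exclusive reads fit inclusion, a share of 42.7% (32.3% to 53.6%). In KO, 63 of 94 did, a share of 67.0% (56.6% to 76.4%; Fisher's exact test, adjusted p = 0.0028, or 0.0677 with Holm). Reads over the event numbered 982 in WT and 1186 in KO, a scaled ratio of 1.29 (1.18 to 1.40). Inclusion-only reads had a scaled ratio of 1.77 (1.16 to 2.72) and skipping reads one of 0.649 (0.401 to 1.03).

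**Figure D3:**
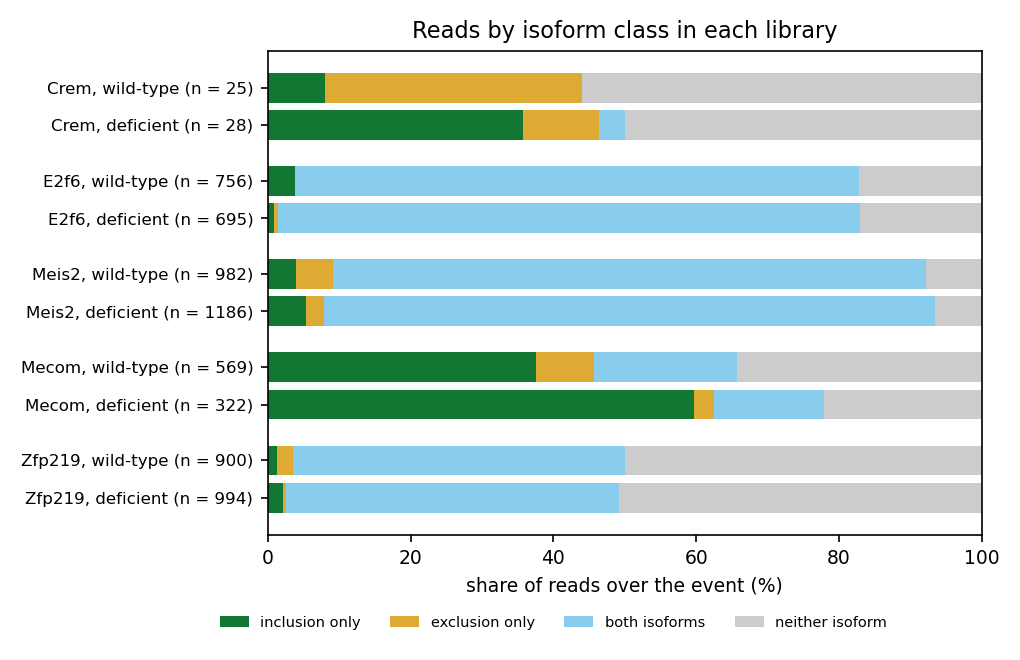
Share of reads over each event (%) by isoform class in each library, with the number of reads in the row label. Reads that fit both isoforms fill 78.97% to 85.6% of the bars of E2f6 and Meis2, while in Crem they are 0 of 25 and 1 of 28 reads.

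The read classes differed more between genes than between libraries. Reads that fit both isoforms made up 79.0% and 81.4% of the E2f6 reads in WT and KO, 83.1% and 85.6% in Meis2, 46.4% and 46.7% in Zfp219, and 20.04% and 15.5% in Mecom. In Crem they were 0 of 25 reads in WT, which allows a share of up to 12%, and 1 of 28 in KO. Over all 100 events the median share was 13.3% in both libraries. Reads that fit neither isoform fell in Mecom from 195 to 71, or from 34.3% to 22.0% of its reads, and were between 6.49% and 56% elsewhere.

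The deposited table also assigns reads to isoforms, including those that fit both. In the authors' deposited table the share assigned to inclusion went from 18.2% to 78.6% in Crem and from 23.3% to 60.5% in Zfp219. It went from 30.6% to 58.6% in Meis2 and from 67.6% to 92.0% in Mecom. In E2f6 it went from 99.8%, with 625 reads assigned to inclusion and 1 to skipping, to 35.2%, with 203 and 373. Of these E2f6 reads in KO, 566 fit both isoforms and only 10 were exclusive, so the split rests on the authors' assignment. The direction was that of the inclusion estimate in each gene. These reads contain the exclusive ones and are no separate observation.

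**Figure D4:**
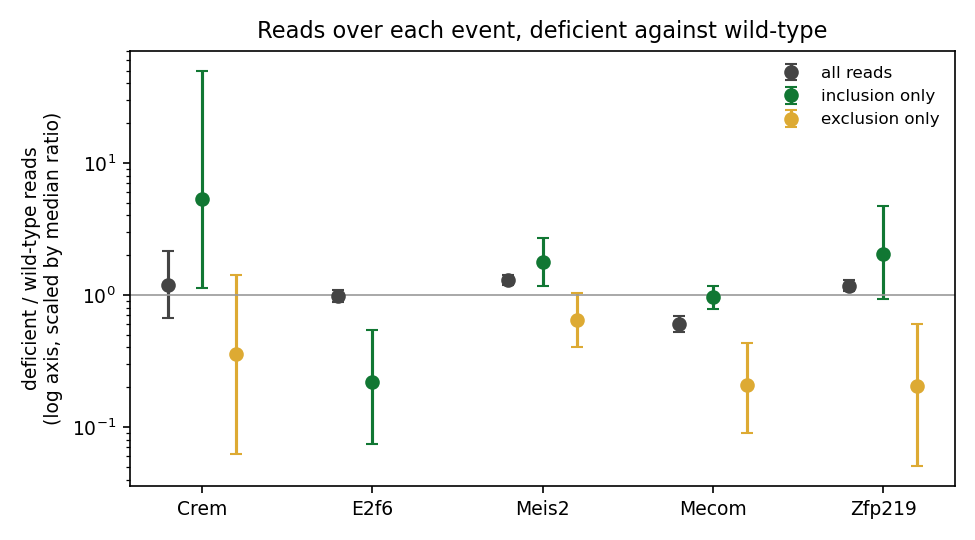
Reads in KO divided by reads in WT on a log axis, scaled by the table's median gene ratio, for all reads, inclusion-only and exclusion-only reads, with exact 95% intervals as bars. Exclusion-only reads lie lowest in Mecom and Zfp219 (0.209 and 0.203), and E2f6 has no exclusion-only point because its WT count is 0.

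Among the scaled ratios of exclusive reads, exclusion-only reads in Mecom and Zfp219 and inclusion-only reads in E2f6 had intervals wholly below 1. Inclusion-only reads in Crem (5.33, interval 1.14 to 50.1, from 2 to 10 reads) and Meis2 had intervals wholly above 1. The intervals of skipping reads in Crem (0.356, 0.0619 to 1.43) and Meis2 and of inclusion-only reads in Mecom and Zfp219 held 1. For all reads over the event, the interval held 1 in Crem (1.19, 0.672 to 2.14) and E2f6 (0.981, 0.884 to 1.09). It lay above 1 in Zfp219 (1.18, 1.08 to 1.29) and Meis2 (1.29, 1.18 to 1.40), and below 1 in Mecom (0.604, 0.525 to 0.693). Over the 96 genes of the table the quartiles of this ratio were 0.905 and 1.18. Zfp219 thus lay at the upper quartile and Meis2 above it, and an interval without 1 does not set a gene apart from the rest.

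The letters AGAGA, a GA-rich run of the kind reported to be bound by SRSF10, were searched in the 4 cassette exons. The search ran on the gene's strand, after the sequences had been read. E2f6 held 1 copy, starting at base 52 of the exon, past the stop codon, and Crem, Meis2 and Zfp219 held 0. Of internal exons of equal length in protein-coding transcripts, 15.2% held it at 66 nucleotides, 18.1% at 98, 18.1% at 95 and 17.6% at 89. A match of letters is not a binding site.

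Of a list of 218 sequence-specific transcription factor genes, 9 had a listed event, and all 9 passed, 6 higher and 3 lower in KO, beside 86% of all events. Apart from the 5 genes above these were Adnp, Zfp207, Trp53 and Hmgxb4. Inclusion rose in Zfp207, which also has a role at kinetochores, from 9% (7% to 11%) to 30% (26% to 34%), with 66 inclusion-only reads out of 502 in WT and 174 out of 444 in KO (adjusted p = 1.46e-18 by Fisher's exact test). The homeobox gene Adnp rose from 32% to 79%. The tumour suppressor gene Trp53 fell from 90% to 56%, and the HMG-box gene Hmgxb4 from 71% (56% to 84%) to 41% (26% to 57%). The authors' intervals overlap in Hmgxb4, whose Bayes factor of 6.84 was under 10. Of 40 genes for partners of the 5 proteins, 1 had a listed event, the Polycomb gene Phc1, which fell from 78% to 43%, with 40 inclusion-only reads out of 46 in WT and 18 out of 30 in KO (adjusted p = 0.017 by Fisher's exact test). Dmtf1, a Myb-like factor outside the list that was added after its values were seen, rose from 28% (17% to 42%) to 57% (40% to 74%), with overlapping intervals and a Bayes factor of 8.13.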

How the data were processed

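One wild-type and 1 SRSF10-deficient library of poly(A) RNA were compared. TopHat and mm9 are named in the submitters' processing notes, without a version. The program that estimated inclusion, its settings and its rule for listing events are named in none of the sources used here. Per the file headers, the authors deposited the posterior mean of inclusion as a fraction with bounds, multiplied by 100 here, a Bayes factor, which is a ratio, and read counts by isoform class. In the deposited table sample 1 was taken as WT and sample 2 as KO from the labels' descriptions. Reads over all events numbered 56927 and 52735.

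The reads that fit a single isoform entered Fisher's exact test, two-sided (SciPy 1.17.1), with Benjamini-Hochberg adjustment over 100 events. To pass, an event needed an adjusted p below 0.05, an inclusion difference of 10 points or more, and reads that moved the same way. The test was tried on simulated independent reads with no difference or a rise in inclusion. These leave out amplification, variation between libraries and the authors' choice of events, so they are no check of the calls here. Shares carry exact Clopper-Pearson 95% intervals, and a count of 0 its limit of 3 counts. Read ratios carry exact 95% intervals. Alternative parts (mm9) were placed in GENCODE M21 transcripts (GRCm38) by exon and intron lengths, with no coordinate converted, and frames were translated with Biopython 1.88. Similar transcripts were searched with blastn 2.17.0+. The named genes are all events of the 5 genes and of 2 gene lists, plus Dmtf1, which was added after its values were seen. Members, lists and rules were chosen with earlier results of these data known. All 100 events entered the test.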

Additional observations from a re-analysis of the deposited data

How the results depend on the processing

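No paired analysis was possible because each genotype had 1 library, and leaving one out leaves no comparison. With the Holm adjustment 36 events passed in place of 86, and 3 of the 5 genes no longer did, namely Crem (50 points, adjusted p = 0.375 by Fisher's exact test), E2f6 (-47 points, 0.13) and Meis2 (23 points, 0.0677). With inclusion-only reads divided by 2, Crem (50 points) missed the threshold and 67 events passed. As shares of exclusive reads the differences were 58.7 points in Crem, -40 in E2f6, 24.3 in Meis2, 13.2 in Mecom and 49.6 in Zfp219, all in the same direction and still past the threshold. The other alternatives change the test or the events tested and leave the inclusion differences as they are. A minimum of 20 exclusive reads in each library left 68 events, without Crem and E2f6, and 63 passed. One event per gene, the authors' Bayes factor and a minimum of 20 points gave 83, 96 and 86 events. Scaling reads by their sum moved no read ratio outside its interval. At 10 to 25 exclusive reads in the smaller library, depth limits Crem, E2f6 and Zfp219 most.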
